A study of Mus musculus with 8 samples.

Results

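The set holds 42 genes of mitosis and chromosome segregation, taken by symbol from the 23336 gene rows of 1 deposited table of read counts, and all 42 were found there. The 8 libraries came from skeletal muscle of C57BL/6 mice labelled female at postnatal day 2. In 4 of the mice the genotype was ΔDMR1-U2, known as a deletion at Igf2, the imprinted gene of insulin-like growth factor 2, and the other 4 were wild-type. The parent that passed on the deletion, and any litter that mice shared, were not given in the sources used here. Libraries carry the names 1A, 1B, 2 and 3 in each group and held 16084413 to 26913636 counts. Muscle fibre markers took 17.5% to 22.6% of the scaled counts, and 16 of 16 listed markers were detected.

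Dividing cells copy their DNA in S phase and separate the copies in mitosis, and these 42 genes encode the machinery of that separation. Cyclin-dependent kinase 1 with its A- and B-type cyclins drives entry into mitosis, condensin compacts the chromosomes, kinetochores tie them to spindle microtubules, and a checkpoint delays anaphase until all are attached. Most of these genes are transcribed in G2 and mitosis and are silent in resting cells, so in newborn skeletal muscle their RNA is thought to come mainly from cells that still divide, such as myoblasts, fibroblasts and vascular cells, rather than from the multinucleated fibres.

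Igf2as, the transcript antisense to Igf2 at the deleted locus, stood at 5.55 to 6.18 CPM (counts per 1000000 counts of the library, scaled for composition) with the deletion and at 54.4 to 72.2 CPM in wild-type, so each library carried the level of its labelled group. Xist, the RNA that coats the inactive X chromosome of female cells, stood at 2.50 CPM in ΔDMR1-U2 library 1A and at 1270 to 1895 CPM in the other 7, which goes against the female label of library 1A. Counts of members are therefore also given without that library and without its namesake 1B.

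All 42 mitosis genes had a lower mean level in ΔDMR1-U2 muscle than in wild-type muscle, by small amounts, and no single one passed the test. Their log2 fold changes, ΔDMR1-U2 over wild-type, ran from -0.56 for Cdca8 to -0.04 for Cenpa with a median of -0.25, where the median over 15241 tested genes was 0.00 and 50.2% of them had a negative value. By edgeR's quasi-likelihood test, with p-values adjusted over all tested genes by Benjamini and Hochberg's method, 0 of 42 members were called, against 172 genes or 1.13% of all, and 94 or 0.617% that were called lower. By unadjusted p under 0.05, 16 members were lower, which is 38.1% of them beside 10.9% of all genes, and 0 were higher beside 10.4% of all genes. DESeq2 called 1 member lower, Cdca8, which is 2.38% of members beside 3.32% of the 15133 genes it gave an adjusted p. The authors' deposited table holds 0 of 42 members under an adjusted p of 0.05 and 42 with a wild-type to ΔDMR1-U2 fold above 1, from 1.02 to 1.47.

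The count of 16 depended on single libraries. With ΔDMR1-U2 library 1A left out the count was 13 (31.0% of members, beside 10.5% of all genes in that fit), without 1B it was 10 (23.8% beside 8.19%) and without both it was 5 (11.9% beside 6.91%), with 42 of 42 members negative each time. Without wild-type library 2 it was 3, or 7.14% beside 9.25% of all genes, and without ΔDMR1-U2 library 3 it was 4, or 9.52% beside 9.12%, so in these fits the members' share was below or near that of all genes. It was 8 (19.0% beside 7.65%) without wild-type library 1A and 10 (23.8% beside 8.67%) without wild-type library 1B. It was higher, at 26 (61.9% beside 12.4%), when ΔDMR1-U2 library 2 was left out, and 31 (73.8% beside 10.4%) when wild-type library 3 was. In these 8 fits that each left out 1 library, 40 to 42 of the 42 members were negative, the exceptions being Cenpa and Cenpf. With library totals in place of the composition scaling, 7 members (16.7%, beside 6.99% of all genes) were lower by unadjusted p and 41 were negative, Cenpa being the exception.

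In bulk RNA, fewer dividing cells and less RNA per dividing cell cannot be told apart. Standard errors of the members ran from 0.08 to 0.17 on the log2 scale, and p-values measure only the spread between these mice. Every member passed the filter on low counts, and the lowest count of any member in any library was 100.

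**Figure D1:**
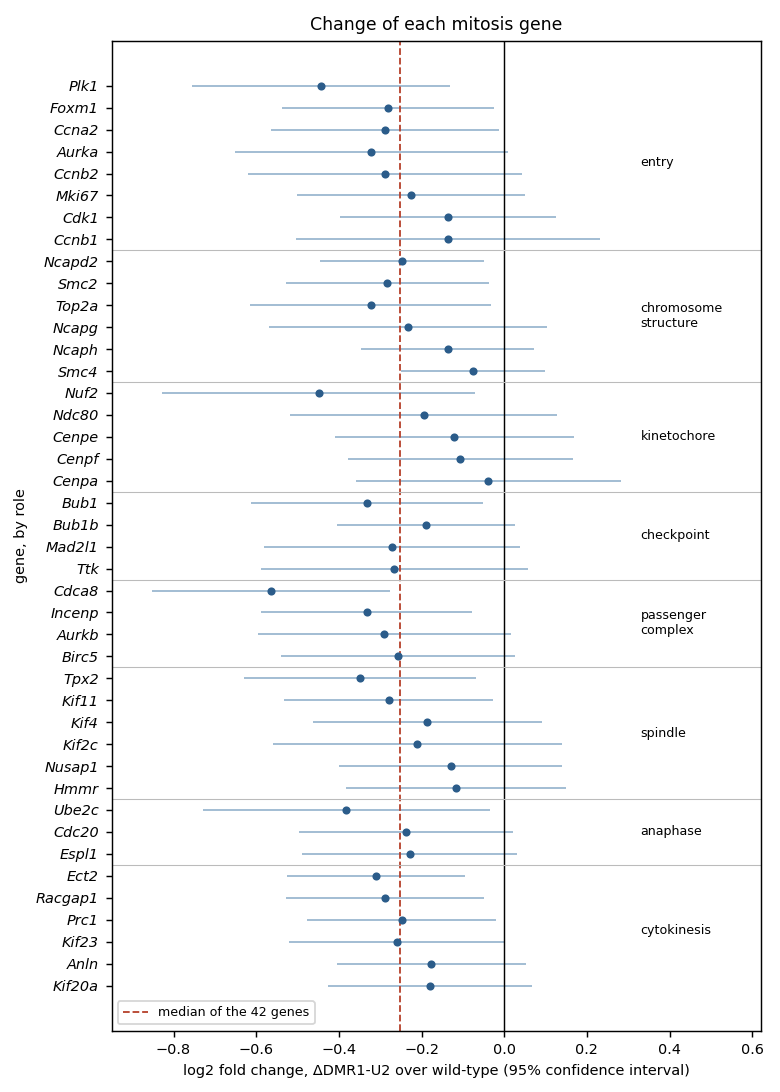
Log2 fold change of each of the 42 genes, ΔDMR1-U2 over wild-type (points, edgeR fit on 4 against 4 libraries), with 95% confidence intervals, ordered by role. All points lie left of 0, and 16 of the intervals lie wholly below it; the dashed line marks the median of -0.25.

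The members kept much the same order of libraries within each group. Summed over the 42 genes, the level was 1458, 1358, 1614 and 1212 CPM in ΔDMR1-U2 1A, 1B, 2 and 3, against 1667, 1744, 1838 and 1360 CPM in wild-type 1A, 1B, 2 and 3. The means were 1411 ± 169 and 1652 ± 207 CPM (SD, n = 4 each), a ratio of 0.854. The groups overlapped: ΔDMR1-U2 libraries 1A and 2 lay above wild-type library 3.

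Within ΔDMR1-U2, library 2 was the highest for 34 of 42 members and library 3 the lowest for 35. Within wild-type, library 2 was again the highest for 32 of 42 and library 3 the lowest for 40. Over all tested genes each library was the highest in its group for 22.9% to 27.2% of genes and the lowest for 22.1% to 28.6%. In wild-type library 3 all 42 members lay below their wild-type mean, with a median deviation of -0.26 on the log2 scale, beside the median difference of -0.25 between genotypes. In ΔDMR1-U2 library 2, 27 of 42 lay below that mean, with a median deviation of -0.02.

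Of the 42 members 1, Cdca8, had groups that did not overlap, which is 2.38% of members beside 6.38% of all tested genes that were lower without overlap. ΔDMR1-U2 library 2 exceeded wild-type library 3 for 39 of 42 members. All 4 ΔDMR1-U2 libraries were lower than wild-type library 1A alone for 29 of 42 members, than 1B for 30, than 2 for 37 and than 3 for 1. The same counts over all genes were not made. With library 3 of both groups left out, a choice made after seeing the data, 41 of 42 members were negative with a median of -0.28, and 20 (47.6%, beside 8.76% of all genes) were lower by unadjusted p.

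**Figure D2:**
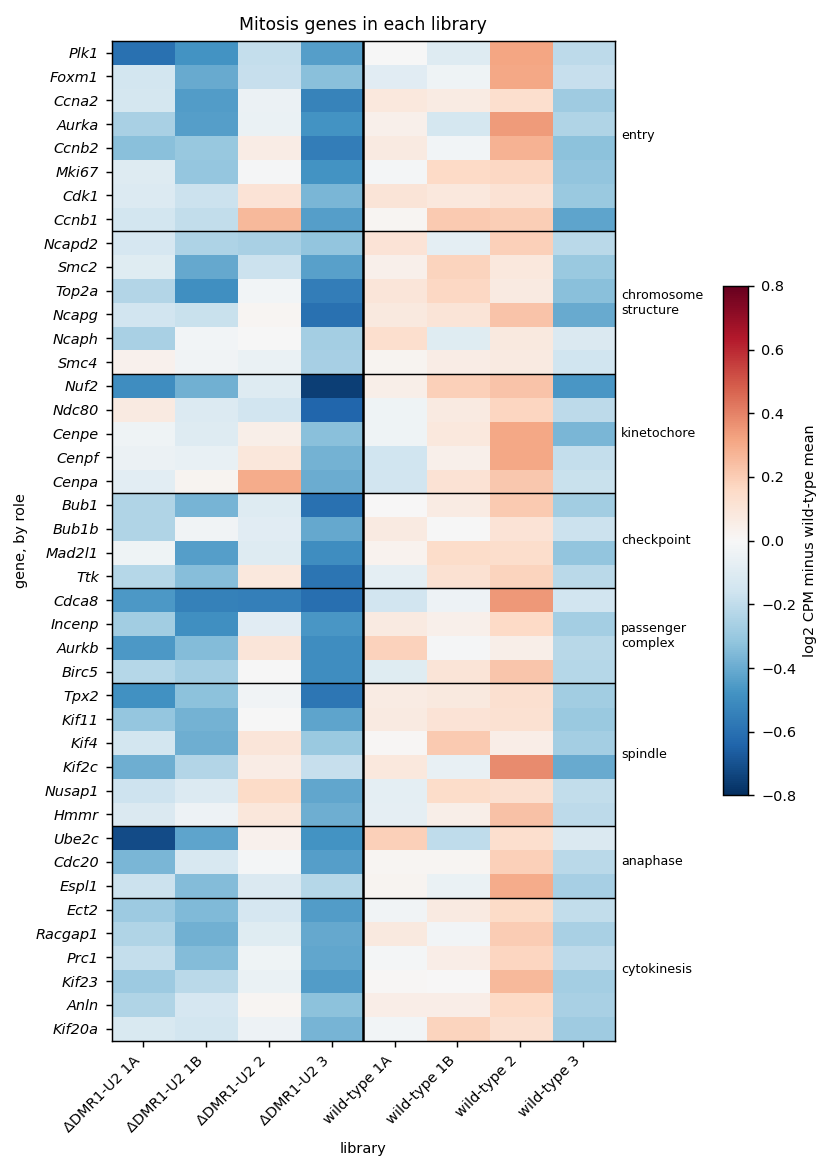
Level of each gene (rows, by role) in each library (columns) as log2 CPM minus the wild-type mean of that gene; blue is lower and red is higher. Wild-type library 3 is blue throughout, like most of the cells of the ΔDMR1-U2 columns, while ΔDMR1-U2 library 2 is close to the wild-type mean.

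The 42 genes lie on 16 chromosomes, and many of their promoters hold the same short elements. In resting cells, a repressor complex called DREAM is known to silence such genes through the cell cycle genes homology region (CHR), and the activator NF-Y binds the CCAAT box. RefSeq promoter windows on GRCm38.p6, the assembly of the mm10 build, were searched from 250 bases before to 50 after the start. A window was present for 35 of the 42 members. A CHR (TTTGAA or TTTAAA, either strand, the latter being its own reverse complement) lay in a window of 30 of the 35, or 85.7%, against 30.6% of 27025 genes of all kinds with windows of the same length. Within 50 bases before to 20 after the start it was found in 62.9% of members and 7.86% of all genes. The CCAAT box, on either strand, lay in 77.1% of members and 41.1% of all genes, and both elements shared a window in 74.3% against 12.2%. The motif of E2F, the S phase activator, was searched as TTTCGCGC, TTTGGCGC or TTTCCCGC on either strand. It lay in 3 of the 35 members (8.57%; Cdk1, Ncapg and Ncapd2) and 2.12% of all genes. Of 35 genes of DNA replication with a window, 15 held the E2F motif (42.9%), 21 a CCAAT box (60%) and 11 a CHR (31.4%).

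The windows of Cdca8, Ect2, Plk1 and Ncapd2 are shown because these 4, of the members described below by library, have a window with a CHR and the smallest p. Capitals mark CHR and CCAAT matches on either strand, the latter also as ATTGG. The windows, printed in the direction of transcription, lie at chr4:124936868-124937167 (minus strand), chr3:27153829-27154128 (minus strand, 1 of 2 windows), chr7:122159185-122159484 (plus strand) and chr6:125191537-125191836 (minus strand).
Cdca8: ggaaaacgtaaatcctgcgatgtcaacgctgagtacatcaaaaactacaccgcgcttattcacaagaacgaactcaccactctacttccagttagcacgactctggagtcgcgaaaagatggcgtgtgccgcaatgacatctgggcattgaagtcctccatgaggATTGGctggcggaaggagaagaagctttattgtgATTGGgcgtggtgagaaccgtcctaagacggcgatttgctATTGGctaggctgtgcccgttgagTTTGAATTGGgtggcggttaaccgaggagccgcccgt
Ect2: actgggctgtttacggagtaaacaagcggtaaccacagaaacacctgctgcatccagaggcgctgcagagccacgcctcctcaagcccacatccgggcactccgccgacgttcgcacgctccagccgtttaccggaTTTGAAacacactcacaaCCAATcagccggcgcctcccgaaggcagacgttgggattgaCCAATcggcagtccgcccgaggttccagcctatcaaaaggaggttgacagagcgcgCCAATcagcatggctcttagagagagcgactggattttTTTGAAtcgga
Plk1: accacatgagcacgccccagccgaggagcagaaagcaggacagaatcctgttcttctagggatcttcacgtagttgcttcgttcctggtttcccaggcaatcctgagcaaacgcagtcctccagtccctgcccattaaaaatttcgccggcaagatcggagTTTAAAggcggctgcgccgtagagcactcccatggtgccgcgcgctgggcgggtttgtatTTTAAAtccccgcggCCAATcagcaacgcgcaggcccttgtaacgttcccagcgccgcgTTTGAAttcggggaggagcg
Ncapd2: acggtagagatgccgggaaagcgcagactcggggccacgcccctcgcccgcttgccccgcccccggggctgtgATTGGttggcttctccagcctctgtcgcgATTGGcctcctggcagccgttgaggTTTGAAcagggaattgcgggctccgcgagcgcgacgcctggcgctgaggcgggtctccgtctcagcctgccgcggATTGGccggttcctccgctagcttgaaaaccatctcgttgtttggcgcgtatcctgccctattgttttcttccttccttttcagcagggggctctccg

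Positions count the first base of a match from the annotated start. In Cdca8 the CHR lies at 14 and shares 1 base with a CCAAT match, and 3 further CCAAT matches lie upstream at -85, -51 and -11. Plk1 has CHR matches at -89, -29 and 31 and a CCAAT match at -14. The CHR of Ncapd2 lies farther out, at -123, and the window also holds an E2F match at -8, printed in lower case. A match is a stretch of letters and does not show that a factor was bound in this tissue. No match was found for the CHR in the windows of Bub1, Ncaph, Mad2l1, Nusap1 and Nuf2.

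**Figure D3:**
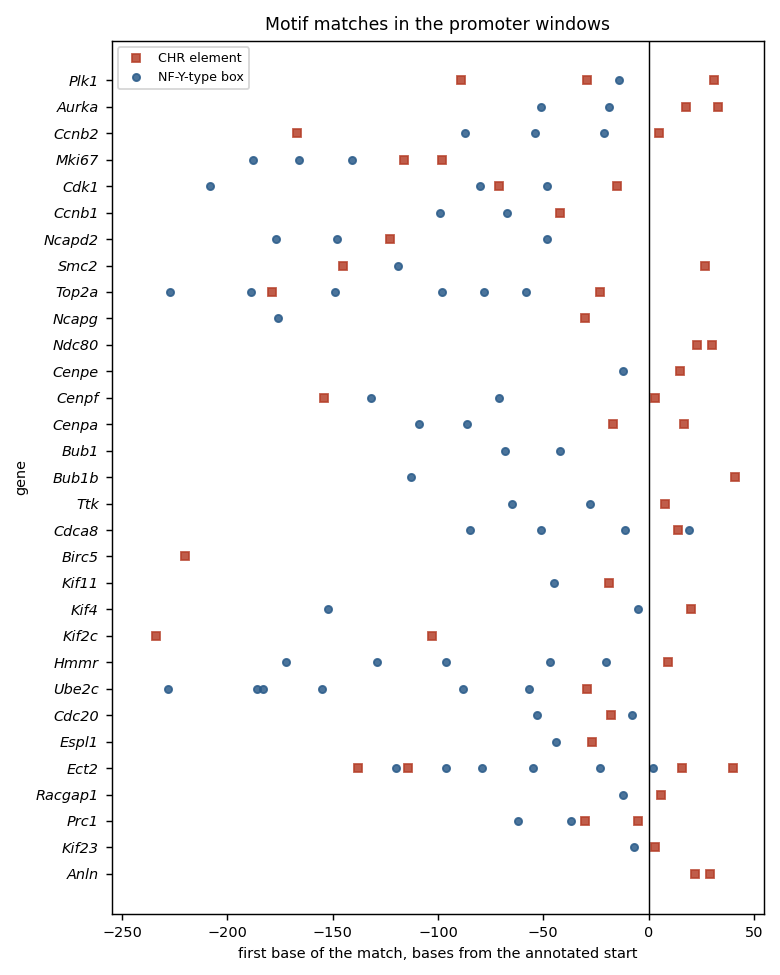
Matches to the CHR (red squares) and the NF-Y-type box (blue circles) in the promoter windows of members with at least 1 match, by distance of the first base from the annotated start; genes with 2 windows show both. CHR matches gather close to the start, where 22 of 35 members have one.

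Genes of mitotic entry, which switch the cell from G2 into mitosis, had log2 fold changes of -0.44 to -0.13 with a median of -0.28, and 3 of 8 were lower by unadjusted p. Mki67, whose Ki-67 protein coats mitotic chromosomes and serves as the usual marker of dividing cells, stood at 316, 274, 337 and 243 CPM in ΔDMR1-U2 1A, 1B, 2 and 3, against 335, 379, 381 and 273 CPM in wild-type. Its groups overlapped, since ΔDMR1-U2 libraries 1A, 1B and 2 lay above wild-type library 3 (log2 fold change -0.23, standard error 0.12, adjusted p = 0.319, edgeR). Plk1, the polo-like kinase of spindle assembly and cytokinesis, stood at 5.21, 5.66, 6.92 and 5.82 CPM in ΔDMR1-U2, against 7.92, 7.39, 9.87 and 6.84 CPM in wild-type. Here ΔDMR1-U2 library 2 alone lay just above the lowest wild-type library (log2 fold change -0.44, standard error 0.14, adjusted p = 0.12, edgeR). The transcription factor Foxm1, which activates many of these genes, had a log2 fold change of -0.28 and cyclin A2 (Ccna2) of -0.29, both lower by unadjusted p. The log2 fold change of Aurka, the kinase of the spindle poles, was -0.32, that of Ccnb2 -0.29, and those of Cdk1 and Ccnb1, which form the mitotic kinase, -0.13 and -0.14. For Ccnb1 and Ccnb2, and for Kif4 of the spindle genes, the annotation names a pseudogene copy, so their counts are uncertain.

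Of 6 genes of chromosome structure, with a median log2 fold change of -0.24, 3 were lower by unadjusted p. Top2a, the topoisomerase that untangles sister DNA, was at 145, 121, 168 and 116 CPM in ΔDMR1-U2, against 182, 191, 179 and 135 CPM in wild-type. ΔDMR1-U2 libraries 1A and 2 lay above wild-type library 3 (log2 fold change -0.32, standard error 0.13, adjusted p = 0.199, edgeR). Ncapd2, a regulatory subunit of condensin, had 65.8, 60.9, 60.5 and 58.1 CPM in ΔDMR1-U2, against 78.1, 68.4, 82.5 and 62.3 CPM in wild-type. Only ΔDMR1-U2 library 1A exceeded the lowest wild-type library (log2 fold change -0.25, standard error 0.09, adjusted p = 0.156, edgeR). Among the other condensin genes, the ATPase subunits Smc2 and Smc4 had log2 fold changes of -0.28 and -0.08, and Ncapg and Ncaph of -0.23 and -0.14. The difference between Smc2 and Smc4 was not tested.

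At the centromere and kinetochore, where microtubules attach, 1 of 5 genes was lower by unadjusted p and the median log2 fold change, -0.12, was the closest to 0 of the 8 roles. Nuf2, which pairs with Ndc80 in the complex that grips the microtubule, was at 8.73, 9.44, 11.5 and 7.30 CPM in ΔDMR1-U2, against 12.8, 14.1, 14.5 and 8.92 CPM in wild-type. Its wild-type library 3 lay among the ΔDMR1-U2 values (log2 fold change -0.45, standard error 0.17, adjusted p = 0.176, edgeR). Ndc80 itself had a log2 fold change of -0.20. Cenpf, a large protein of the outer kinetochore, was at 68.3, 67.7, 75.1 and 54.3 CPM against 63.1, 72.6, 87.5 and 61.9 CPM, values that interleave (log2 fold change -0.11, standard error 0.12, adjusted p = 0.654, edgeR). On the same scale the motor Cenpe was at -0.12 and Cenpa, the histone variant that marks the centromere, at -0.04 with a 95% confidence interval of -0.36 to 0.28.

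Of the 4 spindle checkpoint genes, which hold back anaphase, 1 was lower by unadjusted p, and the median log2 fold change was -0.27. Bub1, a checkpoint kinase, had 15.7, 14.4, 17.3 and 12.2 CPM in ΔDMR1-U2, against 18.6, 19.5, 21.5 and 15.3 CPM in wild-type (log2 fold change -0.33, standard error 0.13, adjusted p = 0.176, edgeR). Bub1b, which encodes the inhibitor of the anaphase-promoting complex known as BubR1, had 28.5, 33.0, 31.7 and 25.4 CPM against 35.4, 33.6, 36.4 and 29.9 CPM (log2 fold change -0.19, standard error 0.10, adjusted p = 0.288, edgeR). For both genes ΔDMR1-U2 library 3 was the lowest of all 8 libraries, and some ΔDMR1-U2 values exceeded wild-type library 3. Mad2l1 and Ttk, the latter a kinase that recruits the others, each had a log2 fold change of -0.27.

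The chromosomal passenger complex, which corrects wrong attachments and then moves to the cell's midzone, included the member with the largest difference, and the median log2 fold change of its 4 genes was -0.31. Cdca8, or borealin (chr4:124918465-124939311, minus strand, mm10), stood at 6.33, 5.98, 5.97 and 5.72 CPM in ΔDMR1-U2 1A, 1B, 2 and 3, against 7.85, 8.50, 11.1 and 7.86 CPM in wild-type. Every ΔDMR1-U2 library lay below every wild-type library, on 100 to 124 counts per ΔDMR1-U2 library. The exons of Cdca8 share 232 bases with 9930104L06Rik on the opposite strand. That gene stood at 11.6 ± 1.06 CPM with the deletion, against 11.7 ± 0.925 CPM in wild-type. Without the strand setting of the counting, reads of the overlap cannot be told apart, so the value of Cdca8 is uncertain. The difference of Cdca8 was -32.3%, with a 95% confidence interval of -44.6% to -17.4% (log2 fold change -0.56, standard error 0.13, adjusted p = 0.0619, edgeR). DESeq2 gave an adjusted p of 0.0108, and over all alternatives it ran from 0.0108 to 0.181. When single libraries were left out the log2 fold change ran from -0.62 to -0.42 and the adjusted p from 0.0636 to 0.136 (edgeR). Incenp, the scaffold of the complex, was at 23.9, 20.6, 27.3 and 21.0 CPM against 30.5, 29.9, 32.3 and 24.0 CPM (log2 fold change -0.33, standard error 0.12, adjusted p = 0.147, edgeR), and only ΔDMR1-U2 library 2 exceeded the lowest wild-type value. The kinase Aurkb and survivin (Birc5) completed the complex with log2 fold changes of -0.29 and -0.26, neither of them lower by unadjusted p.

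Among 6 genes of spindle motors and spindle assembly, with a median log2 fold change of -0.20, 2 were lower by unadjusted p. Tpx2, which activates Aurora A and nucleates microtubules near chromatin, had 27.9, 31.2, 38.4 and 26.2 CPM in ΔDMR1-U2, against 41.0, 41.4, 42.8 and 32.3 CPM in wild-type (log2 fold change -0.35, standard error 0.13, adjusted p = 0.157, edgeR). Without ΔDMR1-U2 library 2, whose value overlapped the wild-type group, Tpx2 was called (adjusted p = 0.0465, edgeR). It was then 1 of 42 members called, beside 337 of 15389 genes called lower in that fit. Over the other alternatives the adjusted p of Tpx2 was 0.0995 to 0.466. Kif11, the motor that pushes spindle poles apart, had 44.6, 42.7, 55.4 and 41.3 CPM against 58.3, 59.7, 60.2 and 45.1 CPM (log2 fold change -0.28, standard error 0.12, adjusted p = 0.20, edgeR). In both genes 3 wild-type libraries lay close together and library 3 lay apart below them. Kif4 and Kif2c, a chromosome-bound motor and a microtubule depolymerase, had log2 fold changes of -0.19 and -0.21, and the microtubule-binding Nusap1 and Hmmr of -0.13 and -0.12.

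Anaphase begins when Cdc20 directs the anaphase-promoting complex to its targets, with Ube2c as its ubiquitin-conjugating enzyme and separase (Espl1) as the protease set free, and 1 of these 3 genes, Ube2c, was lower by unadjusted p. Cdc20 had 13.4, 15.7, 17.1 and 12.7 CPM in ΔDMR1-U2, against 17.4, 17.4, 19.7 and 14.8 CPM in wild-type (log2 fold change -0.24, standard error 0.12, adjusted p = 0.269, edgeR) while Espl1 had a log2 fold change of -0.23. Ube2c had 7.05, 8.70, 11.9 and 8.34 CPM against 13.3, 10.1, 12.8 and 10.7 CPM, with ΔDMR1-U2 library 2 among the wild-type values (log2 fold change -0.38, standard error 0.16, adjusted p = 0.20, edgeR). The exons of Ube2c overlap 592 bases of Tnnc2, the fast troponin C gene on the opposite strand, which stood at 2492 ± 82.7 CPM with the deletion, against 3257 ± 137 CPM in wild-type at a log2 fold change of -0.39. The strand setting of the counting was not given in the sources used here, and without it reads of the overlap cannot be told apart, so the value of Ube2c is uncertain.

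In the genes of the central spindle and cytokinesis, which part the daughter cells, 3 of 6 were lower by unadjusted p and the median log2 fold change was -0.25. Ect2, the exchange factor that turns on RhoA at the furrow, stood at 21.2, 20.3, 23.7 and 19.0 CPM in ΔDMR1-U2, against 25.5, 27.3, 28.9 and 22.6 CPM in wild-type, and ΔDMR1-U2 library 2 alone lay above wild-type library 3 (log2 fold change -0.31, standard error 0.10, adjusted p = 0.119, edgeR). Racgap1, a subunit of the centralspindlin complex, had a log2 fold change of -0.29, and the motor of that complex, Kif23, of -0.26. Anln, the furrow scaffold anillin, had 34.5, 37.2, 41.3 and 32.5 CPM against 42.3, 42.4, 45.5 and 34.1 CPM (log2 fold change -0.18, standard error 0.10, adjusted p = 0.347, edgeR). Prc1, which bundles antiparallel microtubules, had a log2 fold change of -0.25 and the motor Kif20a of -0.18.

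Beside Ube2c, the exons of 9 other members overlap a gene on the opposite strand and those of 3 a gene on the same strand. The 29 members with no such overlap had 29 negative values, a median of -0.26 and 8 genes lower by unadjusted p. Of the 10 with an opposite-strand overlap 5 were lower by unadjusted p, and of the 3 with a same-strand overlap 3 were, beside 10.9% of all genes. Of the partners, Tnnc2 was called (adjusted p = 0.0348, edgeR), while Cdc23, which shares 1271 exonic bases with Kif20a, had a log2 fold change of 0.01, as had Exosc9, which shares 510 with Ccna2.

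Per kilobase of annotated exon the members spanned a wide range. Mki67 was the most abundant at 31.5 ± 5.04 CPM per kilobase (SD over 8 libraries), followed by Smc4 at 18.7 ± 1.47, Top2a at 17.2 ± 3.24 and Ncapd2 at 10.7 ± 1.41. Smc4 and Top2a did not differ beyond their spread. At the low end were Mad2l1 at 1.31 ± 0.225, Cdca8 at 1.43 ± 0.355 and Ndc80 at 1.64 ± 0.261 CPM per kilobase.

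Subunits that work together were not at equal levels per kilobase of annotated exon. In condensin, Smc4 at 18.7 CPM per kilobase stood above Ncapd2 at 10.7, Smc2 at 9.65 ± 1.53, Ncaph at 5.41 ± 0.548 and Ncapg at 2.88 ± 0.529. Ndc80 and Nuf2, which pair in 1 complex, were alike within their spread at 1.64 and 1.72 ± 0.425 CPM per kilobase. In the passenger complex, Incenp at 6.05 ± 1.03, Aurkb at 4.93 ± 0.897 and Birc5 at 3.71 ± 0.594 CPM per kilobase stood above Cdca8. Exon length was taken over all annotated transcripts of a gene, so a gene with a long rarely used exon, such as Mad2l1 with 8390 bases, may be placed too low. The same may hold for Ncapg with 7066 bases and Cdca8 with 5177, so the subunits may differ less in RNA than these levels do.

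**Figure D4:**
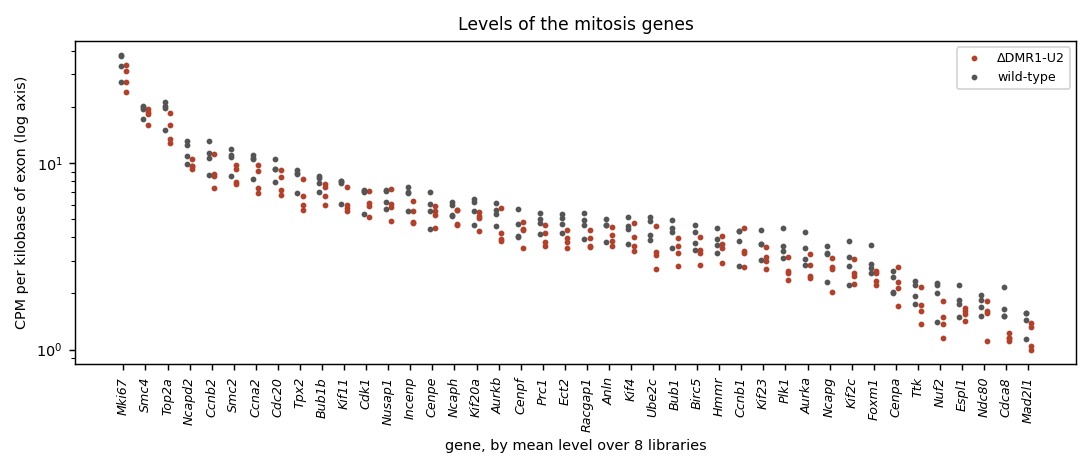
Level of each gene per kilobase of annotated exon (log axis) in each library, red for ΔDMR1-U2 and dark grey for wild-type, ordered by the mean over 8 libraries. Mki67 leads at 31.5 CPM per kilobase and Mad2l1 is last at 1.31; the 2 groups overlap for all genes but Cdca8.

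Other genes of the division cycle were read from lists chosen, like the members, with earlier results of these data known. Of 20 further spindle genes, 18 were negative with a median of -0.17. By unadjusted p, 3 were lower (15%, beside 10.9% of all genes) and 0 were higher. Without overlap between groups, 1 was lower (5%, beside 6.38% of all genes). EdgeR called 1 of the 20 lower, beside 0.617% of all genes. It was Tubg1, the gamma-tubulin from which microtubules grow, at 9.36 ± 0.942 CPM with the deletion, against 14.1 ± 0.775 CPM in wild-type (log2 fold change -0.59, standard error 0.10, adjusted p = 0.0301, edgeR). This call was lost when ΔDMR1-U2 library 3 or any 1 of the wild-type libraries was left out, at adjusted p of 0.0505 to 0.108, and without both ΔDMR1-U2 libraries 1A and 1B, at 0.115, or library 3 of both groups, at 0.111 (edgeR). Of 32 further kinetochore and checkpoint genes, 25 were negative with a median of -0.16 and 0 were called by edgeR. By unadjusted p, 7 were lower (21.9%, beside 10.9% of all genes) and 1 was higher, and 1, Spc24, was called lower by DESeq2. Spc24, a partner of Ndc80 and Nuf2, had a log2 fold change of -0.66 and did not overlap between groups (adjusted p = 0.0824, edgeR).

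In 3 further lists the medians were closer to 0. The 17 genes of condensin II, cohesin and sister separation had a median of 0.00 with 9 negative; Ncapg2, a condensin II subunit, had a log2 fold change of -0.29 and Stag2, a cohesin subunit, of 0.16. The 16 genes of the anaphase-promoting complex had a median of -0.06 with 11 negative. Of 22 regulators of mitotic entry and of DREAM, 18 were negative with a median of -0.10, and Mybl2, the factor that takes over from DREAM in cycling cells, had a log2 fold change of -0.64 without overlap between groups (adjusted p = 0.0644, edgeR). In each of these 3 lists edgeR called 0 genes, and DESeq2 called 0, 0 and 1, the last being Mybl2. By unadjusted p, 1, 3 and 5 genes were lower (5.88%, 18.8% and 22.7%, beside 10.9% of all genes) and 2, 0 and 2 were higher.

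The genes of DNA replication, active in S phase before mitosis, had a median further from 0. Of 44 genes, 43 were negative with a median of -0.33, and 25 were lower by unadjusted p (56.8%, beside 10.9% of all genes). Without overlap between groups, 13 were lower (29.5%, beside 6.38% of all genes). DESeq2 called 8 of them lower (18.2%, beside 3.32% of all genes). EdgeR called 1 of the 44 lower, beside 0.617% of all genes. This gene was E2f2, an activator of S phase genes, at 19.2 ± 3.05 CPM with the deletion, against 29.4 ± 2.58 CPM in wild-type (log2 fold change -0.61, standard error 0.12, adjusted p = 0.0426, edgeR). With ΔDMR1-U2 library 3 or any 1 of the wild-type libraries left out, E2f2 was not called, at adjusted p of 0.0695 to 0.13 (edgeR). Nor was it without both ΔDMR1-U2 libraries 1A and 1B, at 0.0932, or without library 3 of both groups, at 0.128 (adjusted p, edgeR). The difference between the replication and mitosis lists was not tested.

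The order of the libraries was not the same for mitosis and replication genes. Summed replication levels were 970, 683, 921 and 792 CPM in ΔDMR1-U2 1A, 1B, 2 and 3, against 1156, 1105, 1032 and 945 CPM in wild-type. Library 1B was the lowest ΔDMR1-U2 library for 34 of 44 replication genes but for 4 of 42 mitosis genes, where library 3 was the lowest for 35. The ratio of summed mitosis to summed replication level was 1.50, 1.99, 1.75 and 1.53 in ΔDMR1-U2 and 1.44, 1.58, 1.78 and 1.44 in wild-type, so the groups overlapped and library 1B stood highest.

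**Figure D5:**
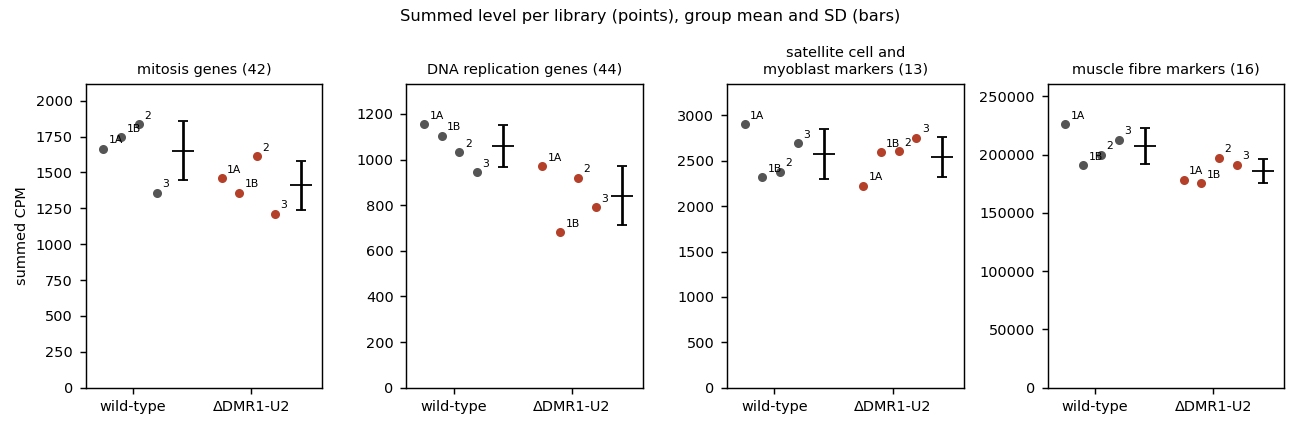
Summed CPM per library (points, labelled by library name) of 4 gene lists, with the group mean and SD (bars, n = 4); all axes start at 0. For the mitosis genes the groups overlap, with wild-type library 3 at 1360 CPM, and replication genes are lowest in ΔDMR1-U2 library 1B at 683 CPM.

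Markers of the cells that could carry these transcripts were summed in the same way. Satellite cell and myoblast markers, 13 of 16 tested, stood at 2225 to 2751 CPM in ΔDMR1-U2 and 2319 to 2905 CPM in wild-type, with Pax3 below the filter. Endothelial markers, 10 of 10, were at 672 to 727 CPM and 672 to 730 CPM. Fibroblast markers, 11 of 11, were at 22528 to 27849 CPM and 25714 to 34989 CPM, and macrophage markers, 10 of 11, at 314 to 355 CPM and 336 to 441 CPM. For each of these lists the ranges of the 2 genotypes overlapped, and edgeR called 0 genes. By unadjusted p, 4, 2, 1 and 3 genes were lower (30.8%, 20%, 9.09% and 30%, beside 10.9% of all genes). In the same order of lists 1, 1, 1 and 0 were higher. DESeq2 called 1, 1, 0 and 0 genes, these being Tmem8c and Cdh5, both lower.

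Muscle fibre markers, 16 of 16, were at 175495 to 197213 CPM in ΔDMR1-U2 and 190982 to 226180 CPM in wild-type, with 15 of 16 negative and 0 called by edgeR. By unadjusted p, 7 were lower (43.8%, beside 38.1% of mitosis genes and 10.9% of all genes) and 1 was higher. DESeq2 called 3 of 16 lower, beside 3.32% of all genes. White adipocyte markers, 9 of 10, were at 966 to 1337 CPM and 877 to 1047 CPM, with 0 of 9 negative, 0 called by edgeR and Lep below the filter. By unadjusted p, 2 of 9 were higher, beside 10.4% of all genes, and DESeq2 called 1 higher. Lymphocyte markers, 6 of 9, were at 18.7 to 30.9 CPM over the 8 libraries, with Cd3g, Cd8a and Ms4a1 below the filter. Erythroid markers, 5 of 13, were at 27.9 to 92.4 CPM, with Hba-a2, Hbb-b1 and Hbb-b2 at 0 and Hba-a1 below the filter. Markers of skin and cartilage, 9 of 9, varied most, from 49.6 to 600.4 CPM in ΔDMR1-U2 and 67.9 to 1310 CPM in wild-type. ΔDMR1-U2 library 3, the lowest in mitosis genes, was also the lowest here. In wild-type the lowest here was library 1A, at 67.9 CPM, while library 3, the lowest in mitosis genes, was at 594 CPM. In the lymphocyte, erythroid and skin and cartilage lists edgeR called 0 genes. By unadjusted p, 1, 0 and 1 were lower (16.7%, 0% and 11.1%, beside 10.9% of all genes) and 0, 1 and 0 higher. DESeq2 called 0, 1 and 0, the 1 being Klf1, which was higher. The part of any of these cells in the levels of the mitosis genes was not tested.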

How the data were processed

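Per the submitters' processing notes, the tools named are TopHat2 2.0.9, Bowtie2 2.1.0, FastQC 0.10.1, DESeq2 1.4.5 and HTSeq 0.5.4p3, and the build is mm10. Settings, annotation and strand were not given in the sources used here. Per the labels' protocols, ribosomal RNA was depleted from total RNA. The authors deposited 1 table with raw counts per gene and library. Per the file headers, it also holds the authors' mean normalised counts (a signal), their linear fold of wild-type over ΔDMR1-U2, its log2, and the p-value and adjusted p-value.

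The raw counts went into edgeR 4.0.16 (R 4.3.3): filterByExpr at a minimum count of 10 (15241 genes tested), scaling by trimmed mean of M values, and the quasi-likelihood test of 4 against 4 libraries with Benjamini-Hochberg adjustment, a gene being called at an adjusted p under 0.05. CPM use the scaled library sizes. The code was tested on simulated data. DESeq2 1.42.0 was an alternative. Members and lists were chosen with earlier results of these data known. In each role, values per library are printed for the most abundant member and the one with the smallest p; from other pathway lists at most 2 genes are named. Gene positions and exon lengths came from GENCODE vM21 and promoter windows from RefSeq on GRCm38.p6, with 42 and 35 members matched. The 8 libraries are from separate mice, and no pair in a group agreed within sampling noise.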

Additional observations from a re-analysis of the deposited data

Results flagged for a closer look

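In 3 members, wild-type library 3 stood apart from the other 3 wild-type libraries by a share of the group's range above Dixon's 95% limit for 4 samples. They were Cdk1 at 26.4 CPM beside 34.5 to 35.2 CPM, Kif11 at 45.1 CPM beside 58.3 to 60.2 CPM, and Tpx2 at 32.3 CPM beside 41.0 to 42.8 CPM. Chance flags about 1 in 20 groups, or 4.5 of the 90 groups tested, if the groups are independent. The members are not, since library 3 was the lowest wild-type library for 40 of 42. The number of flags can therefore not be read against that rate, and all 3 fall on 1 library.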

How the results depend on the processing

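The median log2 fold change of the members was between -0.33 and -0.17 in all 16 alternatives. The number of members called was 0 except in DESeq2 (1, Cdca8) and when single libraries were left out (0 to 1, Tpx2 without ΔDMR1-U2 library 2). The count over all genes moved much more: 172 in the main analysis, 930 with DESeq2, 7 to 631 with 1 library left out (7 without ΔDMR1-U2 3 or wild-type 1A, 10, 20 and 22 without wild-type 2, 1B and 3, 116, 137 and 631 without ΔDMR1-U2 1B, 1A and 2), 16 without both ΔDMR1-U2 libraries 1A and 1B, and 3 without library 3 of both groups. With the replicate label as a block it was 13, and 9 with 1A and 1B together. The members' median was then -0.25, with 0 called. By unadjusted p, 26 members were lower with the first block (61.9%, beside 9.51% of all genes). With the second block 28 were (66.7%, beside 9.98%). Tubg1 and E2f2 were then not called, at edgeR adjusted p of 0.0974 and 0.112 with the first block and 0.0777 and 0.106 with the second. Same-labelled libraries of the 2 groups did not deviate together over all genes (correlations of -0.22, -0.18, -0.08 and -0.08). Over all genes no library correlated best with its own label, and the main analysis did not treat the labels as pairs. Correlations over all genes say little about a shift shared by the 42 members. For the members, library 2 was most often the highest and library 3 the lowest in both groups. The counts were 34 and 35 of 42 in ΔDMR1-U2 and 32 and 40 of 42 in wild-type. Single members changed sign in 6 cases: Cenpa was 0.074 without ΔDMR1-U2 library 3, 0.00086 without wild-type library 1B and 0.043 without wild-type library 2 (range with 1 library left out -0.16 to 0.074), 0.0078 with library totals and 0.014 without library 3 of both groups, and Cenpf was 0.012 without wild-type library 2 (lowest with 1 left out -0.17). The cause was not tested. With library totals, 139 of 216 called genes were higher, against 78 of 172, and the median of all genes was 0.05, that of the members -0.21. Library totals and the removal of library 3 were added after seeing the data. With 4 libraries per group and a biological coefficient of variation of 12.3%, changes as small as those of single members are hard to detect.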
